A study of Mus musculus with 6 samples.

Results

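The genes described here are 10 CC chemokine ligands, Ccl2, Ccl3, Ccl4, Ccl5, Ccl6, Ccl7, Ccl8, Ccl9, Ccl12 and Ccl19, matched by symbol among the 54752 genes of the count tables. They were measured by bulk RNA-seq in the entire right hippocampus, with 1 library per mouse from 3 sham and 3 BCAS mice. All 6 were wild-type male mice, 14 weeks old and of strain C57BL/6 by the labels (C57BL/6 J in the methods of the study), and the tissue was taken 3 weeks after surgery. In BCAS (bilateral carotid artery stenosis) mice a microcoil was placed around each common carotid artery, the narrower one on the right, which lowers blood flow to the brain. Sham mice had the operation without coils. The model was sampled on the narrower side at a single time point, and whole tissue was used, so no value belongs to a sorted cell type.

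CC chemokines are small secreted proteins that attract leukocytes by binding G protein-coupled receptors, the CCRs, on the target cell. In the brain they are made mainly by activated microglia, macrophages, astrocytes and vascular cells, and they direct microglia, monocytes and T cells to sites of injury. Monocyte-attracting ligands (Ccl2, Ccl7, Ccl12) act mostly through Ccr2, and Ccl3, Ccl4 and Ccl5 attract monocytes, macrophages and T cells. Ccl6 and Ccl9 bind Ccr1, and Ccl19 draws dendritic and T cells that carry Ccr7.

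The family is named for a pair of adjacent cysteines near the start of the mature protein, and the coding sequence around them shows how alike and how distinct the 10 genes are. Below are 30 coding bases of 9 of the genes from the GENCODE M21 transcripts on mm10, read 5′ to 3′, with the 2 cysteine codons in capitals.
Ccl2, chr11:82036494-82036523, plus strand: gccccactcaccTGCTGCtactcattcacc
Ccl4, chr11:83663470-83663499, plus strand: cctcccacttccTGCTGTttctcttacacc
Ccl5, chr11:83529230-83529259, minus strand: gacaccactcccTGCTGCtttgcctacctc
Ccl6, chr11:83589374-83589403, minus strand: acttcttcagacTGCTGCttctcttatgcc
Ccl7, chr11:82046526-82046555, plus strand: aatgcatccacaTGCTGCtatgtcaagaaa
Ccl8, chr11:82116044-82116073, plus strand: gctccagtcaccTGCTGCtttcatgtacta
Ccl9, chr11:83575914-83575943, minus strand: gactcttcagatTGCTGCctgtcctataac
Ccl12, chr11:82102622-82102651, plus strand: accccagtcacgTGCTGTtataatgttgtt
Ccl19, chr4:42755248-42755277, minus strand: gatgcggaagacTGCTGCctgtctgtgacc
Among these 9 the codon pair was TGCTGC in 7 genes and TGCTGT in Ccl4 and Ccl12. It lay within exon 2 in all of these genes except Ccl6 and Ccl9, where it lay within exon 3. Over the whole coding sequence, Ccl3 and Ccl4 were the closest pair with 68.4% identical alignment columns, followed by Ccl7 and Ccl8 with 65.0%, Ccl8 and Ccl12 with 64.8% and Ccl6 and Ccl9 with 64.6%. No stretch of 50 bases in the transcripts of Ccl2, Ccl3, Ccl4, Ccl5, Ccl6, Ccl7, Ccl8 or Ccl12 occurred in a transcript of another gene, so reads of that length could be assigned to single ligands. In Ccl9 1.97% of such stretches were shared with other genes. In Ccl19 52.0% were shared with 4 other genes, Ccl19-ps1 among them, and since the counting left out reads with more than 1 alignment, its level is uncertain. No exon of the 10 genes overlapped an exon of another gene. Among the other ligand and receptor genes given below, some shared exonic bases with other genes. The share was 25.7% for Ackr1, 21.5% for Ccr9, 8.90% for Ackr4, 2.74% for Ccl25 and 0.337% for Ccl27a.

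Of the 10 ligands, 8 had enough counts to be tested and all 8 were up-regulated in BCAS mice. Only Ccl6 and Ccl9 had enough sham counts to pass the filter on low counts by the sham group alone. Ccl2, Ccl3, Ccl4, Ccl5, Ccl8 and Ccl12 needed their BCAS counts to be tested, so their direction and separation were in part set by that filter. The same can hold for other genes below with few sham counts. Ccl3 changed by the largest fold and Ccl6 reached the highest level per length. The test was edgeR's quasi-likelihood test over 18617 genes with Benjamini-Hochberg adjustment, and a gene was called when its adjusted p was under 0.05 and its log2 fold change was above 1 in size. By this rule 8.47% of all tested genes were higher in BCAS mice and 0.999% were lower. The median log2 fold change was 4.72 over the 8 tested ligands and 0.018 over all tested genes. In all 8 the groups did not overlap, the lowest BCAS value being above the highest sham value, which held for 25.3% of tested genes. Levels are given in CPM (counts for every 1000000 counts of the library) scaled by TMM factors, and 3 counts in a library equal 0.0875 to 0.0995 CPM, which is also what a count of 0 allows. Many sham values lay at or under this limit.

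**Figure D1:**
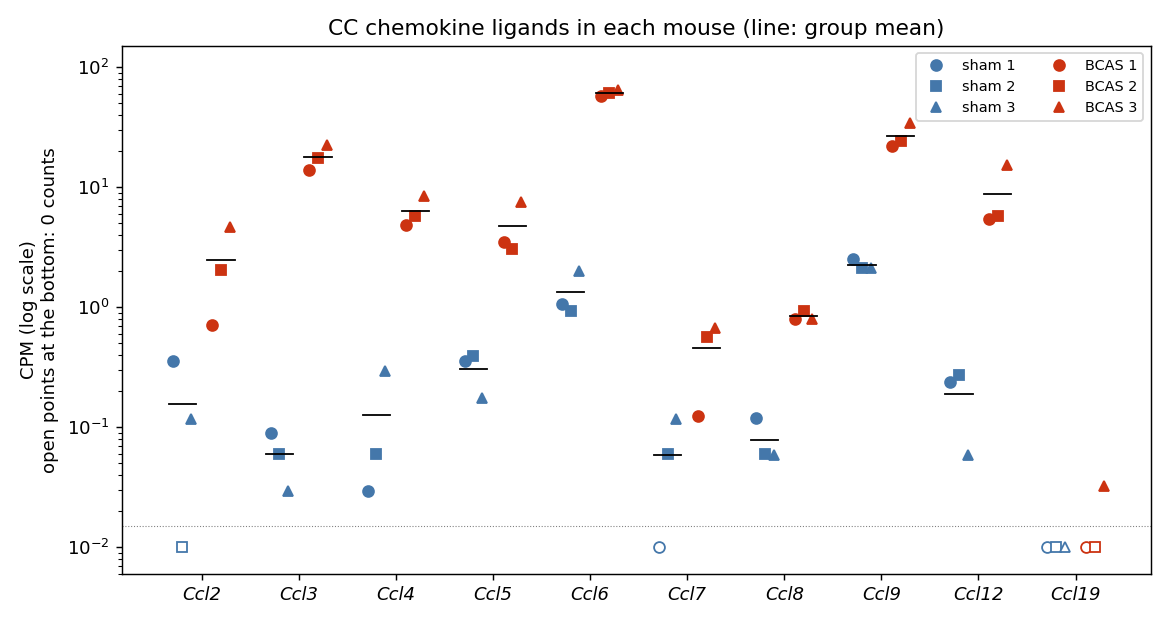
CPM of the 10 CC ligands in each of the 6 mice on a log scale, with sham mice in blue, BCAS mice in red, a black line at each group mean, and open points at the bottom for 0 counts. All BCAS points lie above all sham points for every ligand but Ccl19, and for Ccl7 the lowest BCAS value of 0.123 CPM lies just above the highest sham value of 0.117 CPM.

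Among the monocyte-attracting ligands, Ccl2, the main ligand of Ccr2, was read at 0.354, 0 and 0.117 CPM in sham mice 1 to 3. In BCAS mice 1 to 3 it was 0.708, 2.02 and 4.68 CPM. Sham mouse 1 and BCAS mouse 1 were the closest, and the BCAS mice differed widely among themselves. The log2 fold change of Ccl2 was 3.94 (SE 0.92; edgeR adjusted p = 0.0120). It was the least certain of the 8 calls, since without sham mouse 3 the adjusted p was 0.0572, and without sham mouse 1 or BCAS mouse 3 the log2 fold change was 5.30 or 3.08.

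Ccl12, a mouse ligand of Ccr2, was at 0.236, 0.269 and 0.0583 CPM in sham mice and at 5.45, 5.74 and 15.3 CPM in BCAS mice. BCAS mouse 3 stood well above the other two, which lay close together. The log2 fold change was 5.53 (SE 0.59; edgeR adjusted p = 2.21e-04), and it was 4.87 without BCAS mouse 3. Ccl8, a relative of the Ccr2 ligands that in the mouse also activates Ccr8, was at 0.118, 0.0599 and 0.0583 CPM in sham mice. In BCAS mice it was 0.800, 0.928 and 0.801 CPM, with a coefficient of variation of 8.72%. Its log2 fold change was 3.36 (SE 0.48; edgeR adjusted p = 0.00117). The sham value rests on 8 counts over 3 libraries, and the ratio of summed counts was 10.7 with a 95% counting interval of 5.17 to 25.6.

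Ccl7, another monocyte attractant, had 0, 2 and 4 counts in the sham group against 4, 17 and 21 in the BCAS group, which was below the filter on low counts. Every BCAS mouse lay above every sham mouse after scaling, and the ratio of summed counts was 7.58, with a 95% counting interval of 3.21 to 21.8. When all genes with at least 1 count were tested, Ccl7 was called with a log2 fold change of 2.85 (SE 0.91; edgeR adjusted p = 0.0261).

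Among the inflammatory ligands Ccl3, Ccl4 and Ccl5, Ccl3, a product of activated microglia and macrophages, was nearly undetected in sham mice, with 3, 2 and 1 counts, or 0.0885, 0.0599 and 0.0292 CPM. In BCAS mice 1 to 3 it had 453, 522 and 699 counts, or 13.9, 17.3 and 22.4 CPM. The BCAS mice lay close together, with a coefficient of variation of 23.8%. The log2 fold change of Ccl3 was 8.15 (SE 0.34; edgeR adjusted p = 4.87e-06), which ranked 8 among the 18617 tested genes. The ratio of summed counts was 302 with a 95% counting interval of 138 to 824, so the size of the fold is loosely bounded by the few sham counts.

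Ccl4, the closest relative of Ccl3 and its neighbour on chromosome 11, was at 0.0295, 0.0599 and 0.292 CPM in sham mice. It reached 4.83, 5.77 and 8.46 CPM in BCAS mice. The rise was clear in every BCAS mouse, and sham mouse 3 stood above the other sham mice. The log2 fold change was 5.59 (SE 0.54; edgeR adjusted p = 1.31e-04), and it was 7.03 without sham mouse 3.

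Ccl5, a T cell attractant that T and NK cells make in large amounts, was at 0.354, 0.389 and 0.175 CPM in sham mice and at 3.48, 3.05 and 7.57 CPM in BCAS mice. BCAS mouse 3 was again the highest. The log2 fold change was 3.93 (SE 0.47; edgeR adjusted p = 4.10e-04). Of 10 tested T and NK cell markers, 8 were also up-regulated, and the summed level of the 14 listed markers was 2.80 to 3.62 CPM in sham mice and 13.5 to 16.5 CPM in BCAS mice. Their part in the rise of Ccl5 was not tested.

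The Ccr1 ligands Ccl6 and Ccl9, both made by myeloid cells, were the ligands with the most counts in sham mice, 31 to 85 in each library. Ccl6 was at 1.06, 0.928 and 2.01 CPM in sham mice and at 57.3, 61.4 and 63.9 CPM in BCAS mice. Its BCAS values were the most even of all 10 ligands, with a coefficient of variation of 5.49%, and its log2 fold change was 5.50 (SE 0.24; edgeR adjusted p = 6.14e-06). Ccl9 was at 2.51, 2.12 and 2.10 CPM in sham mice and at 21.9, 24.1 and 34.1 CPM in BCAS mice. Here too the groups lay far apart, and BCAS mouse 3 was the highest. Its log2 fold change was 3.57 (SE 0.20; edgeR adjusted p = 1.43e-05).

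Ccl19, the ligand of Ccr7, had 0 counts in 5 libraries and 1 count in BCAS mouse 3. It was not tested, and no fold is given. The other 9 ligands all had counts in every BCAS mouse.

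To compare the ligands with each other, counts were divided by gene length (RPKM). In BCAS mice Ccl6 led with 33.9 RPKM (SD 1.86, n = 3), above every value of the next ligand, Ccl3, at 23.4 RPKM (SD 5.57). Ccl12 at 16.5 (SD 10.5), Ccl4 at 9.63 (SD 2.86), Ccl9 at 8.77 (SD 2.13), Ccl5 at 4.89 (SD 2.60), Ccl2 at 2.17 (SD 1.78) and Ccl8 at 1.65 RPKM (SD 0.144) followed. Each of these except Ccl8 overlapped the next in the order. Ccl7 at 0.566 RPKM (SD 0.364) lay below every value of Ccl8 but overlapped Ccl2, and Ccl19 was the lowest. In sham mice Ccl6 and Ccl9 were level at 0.743 (SD 0.329) and 0.737 RPKM (SD 0.0753), Ccl12 followed at 0.350 RPKM (SD 0.211), and from Ccl12 downwards each ligand overlapped the next.

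The make-up of the ligand transcripts differed between the groups. Summed over the 10 genes, the level was 2.93, 2.48 and 2.94 RPKM in sham mice and 80.7, 91.6 and 132 RPKM in BCAS mice. Ccl9 made up 28.1%, 28.1% and 23.4% of this sum in sham mice and 8.90%, 8.65% and 8.49% in BCAS mice. Ccl3 made up 3.95%, 3.15% and 1.29% in sham mice and 22.5%, 24.7% and 22.2% in BCAS mice. The shares of Ccl5, at 6.19% to 16.3% against 3.47% to 5.98%, and of Ccl8, at 3.88% to 7.89% against 1.19% to 1.98%, were also lower in BCAS mice. The groups did not overlap in any of these 4 shares. No test was run on them, and the sham shares of Ccl3 and Ccl8 rest on 1 to 4 counts in each library. The shares of a mouse add up to a fixed total, so a higher share of 1 ligand lowers those of others. The share of Ccl6 was 20.2% to 38.1% in the sham group against 27.0% to 39.5% in the BCAS group, and these ranges overlapped, as did those of the other 5 ligands.

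**Figure D2:**
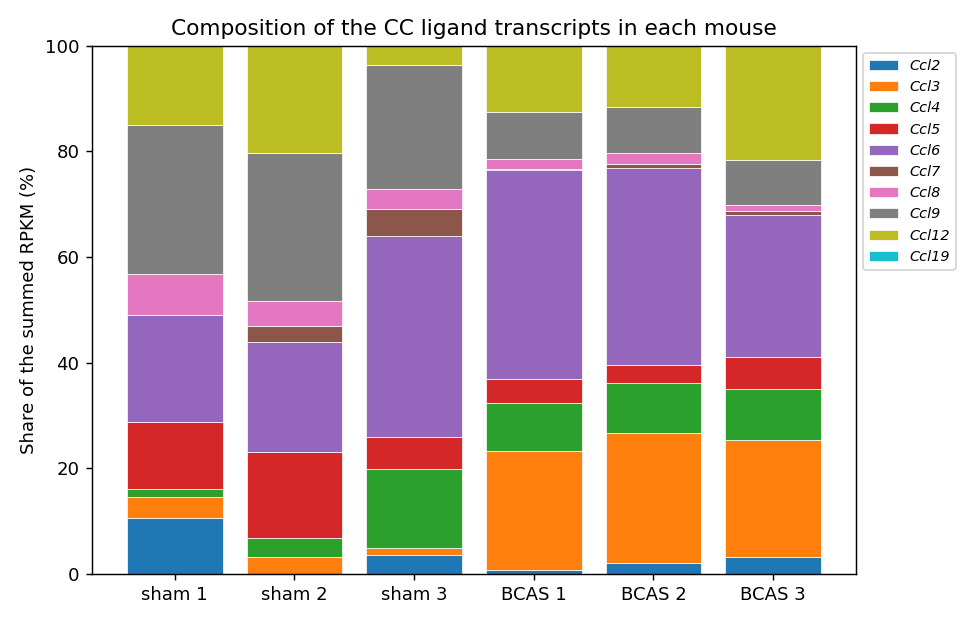
Share of each ligand in the summed RPKM of the 10 CC ligands, in percent, as 1 stacked bar per mouse. Ccl9 takes 23.4% to 28.1% of the sham bars against 8.49% to 8.90% of the BCAS bars, and Ccl3 takes 1.29% to 3.95% against 22.2% to 24.7%.

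Ratios of neighbouring or related ligands were compared within each mouse for 6 pairs, as log2 ratios of length-scaled counts with 0.5 added. The Ccl6/Ccl9 log2 ratio was -0.47, -0.42 and 0.70 in sham mice and 2.15, 2.11 and 1.67 in BCAS mice. The BCAS mean was 2.04 higher, with no overlap between the groups. Against Ccl4, Ccl3 was higher by 2.03 in BCAS mice, and against Ccl12, Ccl8 was lower by a log2 difference of -2.25, also with no overlap. For each of these 3 pairs the exact two-sided permutation p was 0.1, the smallest that 3 mice against 3 allow, and the adjusted p over the 6 pairs was 0.20. The Ccl3/Ccl4 ratio in sham mice rests on 1 to 10 counts per gene and ran from -3.02 to 1.01, while in BCAS mice it ran only from 1.19 to 1.37. For Ccl5/Ccl4 the difference was -2.12 with overlapping groups (exact permutation p = 0.3), and for Ccl2/Ccl12 and Ccl2/Ccl7 it was -1.09 and 1.55 (exact permutation p = 0.6 for each).

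Within the BCAS group the ligands were not equally variable between mice. BCAS mouse 3 had the highest value for 7 of the 8 tested ligands, and Ccl8 was highest in BCAS mouse 2. Set against the mean of BCAS mice 1 and 2, the level in BCAS mouse 3 was 3.43 times as high for Ccl2, 2.74 times for Ccl12 and 2.32 times for Ccl5. The ratio was 1.60 for Ccl4, 1.48 for Ccl9 and 1.43 for Ccl3. It was 1.08 for Ccl6 and 0.927 for Ccl8. The summed level of the 13 genes shared by microglia and macrophages was also highest in BCAS mouse 3, at 1.56 times the mean of the other two, as were those of the homeostatic microglia markers (1.59), monocytes (1.55), B cells (1.55), oligodendrocytes (1.43), fibroblasts (1.36) and T and NK cells (1.22). The hippocampal neuron markers were lowest there, at 0.739 times, and the astrocyte markers were at 0.994 times. Their part in these differences was not tested.

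Since whole tissue was sequenced, more cells of a type and more RNA per cell cannot be told apart. All 13 genes shared by microglia and macrophages, such as C1qa and Ctss, and all 12 homeostatic microglia markers were up-regulated, with median log2 fold changes of 3.74 and 2.17. The ligands were therefore also expressed relative to the mean log2 CPM of the 13 shared genes in the same mouse. On this scale Ccl3 was higher in BCAS mice by 3.69, Ccl6 by 1.99, Ccl4 by 1.78 and Ccl12 by 1.58, and in each of these 4 every BCAS mouse lay above every sham mouse, which held for 0.414% of tested genes. Ccl5, Ccl2 and Ccl9 differed by 0.10, 0.03 and -0.02, with overlapping groups. Ccl8 differed by -0.82 and the untested Ccl7 by -1.54, and in both every BCAS mouse lay below every sham mouse, as for 97.5% of tested genes. Ccl19 is left out here for want of counts. Ccl9 was the steadiest, at -2.45, -2.57 and -2.83 in sham mice and -2.57, -2.64 and -2.70 in BCAS mice. The log2 CPM used a prior count of 2, which lifts the sham values of ligands with few counts. This lowers their differences, so that rises come out smaller and falls larger. With 0 to 4 counts in each sham library, the size and the separation of the falls of Ccl8 and Ccl7 depend on this prior count. Relative to the homeostatic markers in place of the shared genes, Ccl9 and Ccl8 were higher in BCAS mice, by 1.23 and 0.43.

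**Figure D3:**
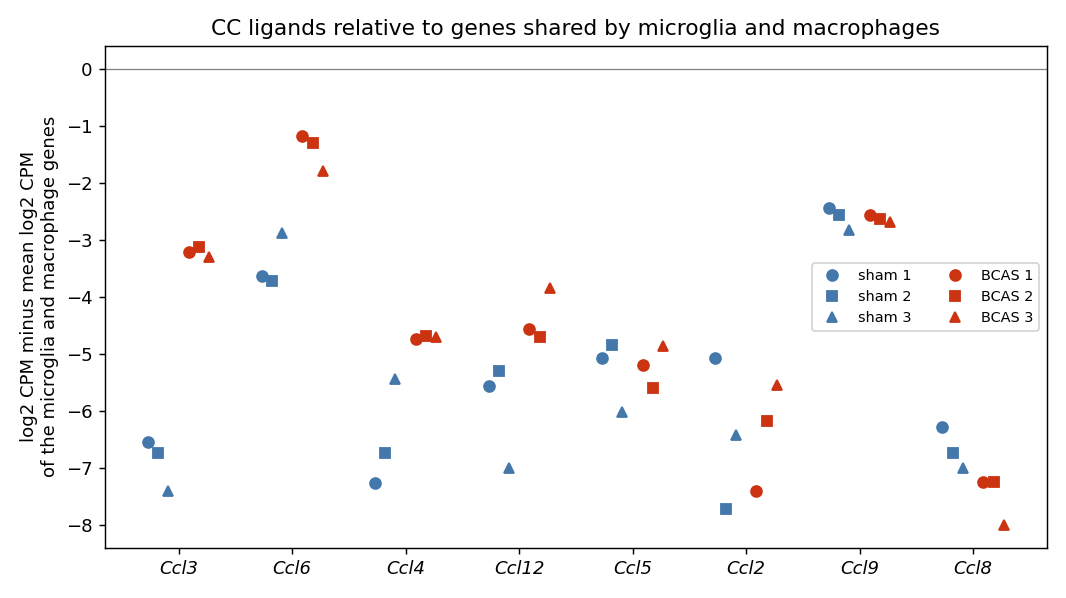
log2 CPM of the 8 tested ligands minus the mean log2 CPM of 13 genes shared by microglia and macrophages, with 1 point per mouse, sham mice in blue and BCAS mice in red, ordered by the difference between the groups. The groups lie apart with BCAS mice higher for Ccl3, Ccl6, Ccl4 and Ccl12, while the points of Ccl9 lie between -2.83 and -2.45 in both groups.

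Markers of other cells gave the following background. Of 5 tested monocyte markers 4 were up-regulated, and their summed level over 7 listed genes was 1.02 to 2.30 CPM in sham mice and 8.31 to 17.4 CPM in BCAS mice. Of 8 markers of border-associated macrophages 6 were up-regulated, with a summed level of 10.6 to 15.1 CPM in the sham group and 29.9 to 38.1 CPM in the BCAS group. Of 8 astrocyte markers 2 were called, Gfap (log2 fold change 3.29) and Aqp4 (1.67), but in all 8 every BCAS mouse lay above every sham mouse, and their summed level was 4411 to 4711 CPM in the sham group and 9429 to 9973 CPM in the BCAS group. Of the vascular markers, the 6 endothelial genes had log2 fold changes of 0.20 to 0.98, all under the fold threshold, and 1 of 4 pericyte genes was called, Abcc9 (1.04). The groups lay apart with BCAS mice higher in 5 of the 6 and in all 4. Their summed levels were 243 to 283 CPM against 324 to 383 CPM for endothelial cells and 194 to 199.8 CPM against 239 to 253 CPM for pericytes. Of 5 fibroblast markers 2 were called, the collagen genes Col1a1 and Col1a2, and the summed level was 85.0 to 178 CPM against 176 to 299.99 CPM, which overlap. Of 3 tested B cell markers 2 were called, Cd79b and Ighm, and the summed level over the 5 listed genes was 11.2 to 23.0 CPM against 48.5 to 77.6 CPM. Of 6 dendritic cell markers 2 were called, with sums of 15.8 to 19.9 CPM against 17.6 to 20.4 CPM, which overlap. The part of these cells in the ligand changes was not tested. The 8 neutrophil markers summed to 0.629 to 2.65 CPM in the sham group and 0.769 to 4.11 CPM in the BCAS group, which overlap, and Ly6g had 0 counts in all 6 libraries. Oligodendrocyte markers summed to 5092 to 6256 CPM in the sham group and 5840 to 8796 CPM in the BCAS group, which also overlap. Choroid plexus markers summed to 69.8 to 4078 CPM in sham mice and 40.3 to 5918 CPM in BCAS mice, and this level varied widely between the libraries of both groups. The summed level of 9 hippocampal neuron markers was 6300 to 6870 CPM in sham mice and 3551 to 5087 CPM in BCAS mice. None of the 9 was called, and their median log2 fold change was -0.46. The libraries held 34301711 to 35607098 counts in the sham group and 29652456 to 31892083 in the BCAS group.

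Not all other CC ligand genes passed the test. Of 14 other CC ligand genes, 13 were matched and 7 were tested, and Ccl11 and Ccl22 were up-regulated. Ccl11, an eosinophil attractant, had 0, 0 and 2 counts in the sham group against 16, 38 and 89 in the BCAS group (log2 fold change 6.03, SE 1.03; edgeR adjusted p = 0.00281), and the ratio of summed counts was 77.4 with a 95% counting interval of 21 to 645. Its log2 fold change was 8.63 without sham mouse 3, the only sham mouse with counts, and 5.22 without BCAS mouse 3. Ccl22, a ligand of Ccr4, was at 0.0590 to 0.350 CPM in sham mice and 0.796 to 1.67 CPM in BCAS mice (log2 fold change 2.49, SE 0.59; edgeR adjusted p = 0.0128), and it missed the threshold without BCAS mouse 3 (adjusted p = 0.0518). Without sham mouse 3 its log2 fold change was 3.19. Ccl28, a mucosal chemokine, was at 4.93 to 7.55 CPM in sham mice and 2.66 to 3.69 CPM in BCAS mice (log2 fold change -0.98, SE 0.22; edgeR adjusted p = 0.00954), which is just inside the fold threshold. It was called lower without sham mouse 1 (-1.15), BCAS mouse 1 (-1.09) or BCAS mouse 2 (-1.02). Ccl27a, a skin-associated chemokine, had a log2 fold change of -0.29 (adjusted p = 0.146), and Ccl25, Ccl17 and Ccl21b had 0.22, 0.29 and -0.33 (adjusted p = 0.331 to 0.792). Ccl20, Ccl21a and Ccl26 had 0 counts in all libraries, and Ccl21a and Ccl21b are near-identical copies whose reads may not have been counted.

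Among the receptors, Ccr2, the receptor of Ccl2, Ccl7 and Ccl12, was at 0.531, 0.419 and 0.554 CPM in sham mice and 3.05, 4.38 and 5.64 CPM in BCAS mice (log2 fold change 3.11, SE 0.31; edgeR adjusted p = 1.59e-04). The groups lay apart and BCAS mouse 3 was the highest. Ccr1 was at 0.239 to 0.826 CPM in sham mice and 1.11 to 1.39 CPM in BCAS mice (log2 fold change 1.38, SE 0.45; edgeR adjusted p = 0.0473), and this call was lost on leaving out any mouse but sham mouse 1 (adjusted p = 0.0716 to 0.142). Without sham mouse 1 its log2 fold change was 1.97. Ccr9 and Ccr10 had log2 fold changes of 1.25 and 0.93 (adjusted p = 0.0925 and 0.236), and Ccr9 was called without BCAS mouse 2 (log2 fold change 1.59; edgeR adjusted p = 0.0295). Ccr7, the receptor of Ccl19, had 2, 0 and 4 counts in the sham group against 7, 34 and 25 in the BCAS group, which was below the filter on low counts. When all genes with at least 1 count were tested, Ccr7 was called (log2 fold change 3.51, SE 0.81; edgeR adjusted p = 0.00186), and with a mean count of at least 10 the adjusted p was 0.0162.

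Atypical receptors bind chemokines without the usual signal, and 4 were tested. Ackr2, which takes up and degrades inflammatory CC ligands, was the only ligand or receptor gene called lower with all 6 mice, at 1.39, 2.27 and 2.10 CPM in sham mice and 0.708, 0.829 and 0.609 CPM in BCAS mice (log2 fold change -1.42, SE 0.32; edgeR adjusted p = 0.00984). Ccrl2, which presents bound chemerin to neighbouring cells, was up-regulated (log2 fold change 1.93, SE 0.29; edgeR adjusted p = 0.00160), and Ackr1 and Ackr4 had log2 fold changes of -0.30 and 0.15 (adjusted p = 0.294 and 0.910). Of 15 genes that carry the receptor signal 5 were up-regulated, among them the myeloid genes Dock2 (log2 fold change 3.39), Rac2 (3.48) and Pik3cg (2.73). In 10 of the 15 every BCAS mouse lay above every sham mouse. None was called lower. The largest falls were those of Ptk2b, Gng2 and Gnb1, with log2 fold changes of -0.93, -0.59 and -0.26 (edgeR adjusted p = 0.00415, 0.00367 and 0.0880). The summed level of the 15 genes was 2149 to 2209 CPM in sham mice and 1936 to 2011 CPM in BCAS mice. Of 10 tested genes that induce or regulate CC ligands 7 were up-regulated, among them Irf7 (4.31) and Nfkb1 (1.11).

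**Figure D4:**
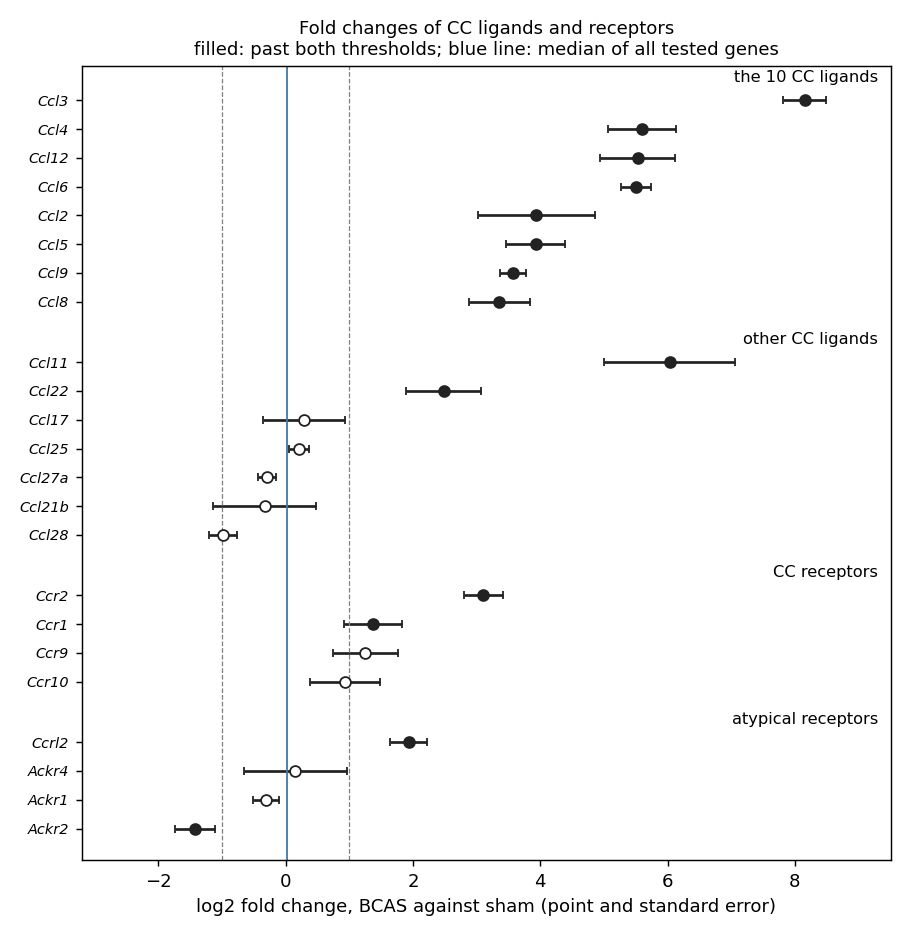
log2 fold change of BCAS against sham mice with its standard error for the tested CC ligands, other CC ligands, CC receptors (those named in the text) and atypical receptors, with filled points for genes past both thresholds, dashed lines at 1 in size and a blue line at the median of all tested genes, 0.018. The 8 ligands lie between 3.36 and 8.15, and Ackr2 at -1.42 is the only filled point to the left.

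On the chromosome, 9 of the 10 ligands lie in 2 groups on chromosome 11 of mm10, and the genes around them were examined too. Ccl2, Ccl7, Ccl12 and Ccl8 lie with Ccl11 at chr11:82035571-82116799, and none of the 3 other genes lying wholly within 100000 bases had enough counts to be tested. Ccl1, a further CC ligand whose annotated span (chr11:82176657-82305690) begins inside that distance, had 0 counts in the sham group and 2, 0 and 2 in the BCAS group. Ccl5, Ccl9, Ccl6, Ccl3 and Ccl4 lie at chr11:83525778-83664683, and of 15 other genes lying wholly within the same distance 5 were tested. Wfdc17, which encodes a small secreted protein, was called, at 0.295, 0.120 and 0.117 CPM in sham mice and 0.769, 3.45 and 2.28 CPM in BCAS mice (log2 fold change 3.58, SE 0.64; edgeR adjusted p = 0.00357). The other 4 did not pass both thresholds. Mmp28, a matrix metalloproteinase, had a log2 fold change of 0.62 (edgeR adjusted p = 0.0433) and 1700020L24Rik one of 1.11 (adjusted p = 0.0728), and in both every BCAS mouse lay above every sham mouse. These 2 genes overlap on opposite strands, and reads were counted without strand. The general transcription factor gene Taf15 had a log2 fold change of -0.02 (adjusted p = 0.863) and Wfdc18 one of -0.33 (adjusted p = 0.581), with overlapping groups. Ccl19 lies on chromosome 4, at chr4:42754525-42756577.

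The 250 bases before the start of the genes were also searched for short motifs. Sequences were taken from RefSeq on GRCm38.p6, which matched 6 of the 10 genes, Ccl3, Ccl6, Ccl8, Ccl9, Ccl12 and Ccl19. The 4 printed are those of up-regulated ligands with a match, read 5′ to 3′ and ending 1 base before the start, with matches on either strand in capitals.
Ccl3, chr11:83649379-83649628, minus strand: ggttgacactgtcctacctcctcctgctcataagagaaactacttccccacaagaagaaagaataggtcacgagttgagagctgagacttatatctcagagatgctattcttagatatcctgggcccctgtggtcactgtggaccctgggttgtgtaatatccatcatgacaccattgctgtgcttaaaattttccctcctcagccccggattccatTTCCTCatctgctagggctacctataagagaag
Ccl12, chr11:82101595-82101844, plus strand: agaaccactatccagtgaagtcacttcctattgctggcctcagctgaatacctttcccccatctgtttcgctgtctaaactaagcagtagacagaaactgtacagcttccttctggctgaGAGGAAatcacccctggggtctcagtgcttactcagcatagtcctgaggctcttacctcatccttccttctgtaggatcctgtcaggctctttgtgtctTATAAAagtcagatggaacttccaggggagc
Ccl8, chr11:82114935-82115184, plus strand: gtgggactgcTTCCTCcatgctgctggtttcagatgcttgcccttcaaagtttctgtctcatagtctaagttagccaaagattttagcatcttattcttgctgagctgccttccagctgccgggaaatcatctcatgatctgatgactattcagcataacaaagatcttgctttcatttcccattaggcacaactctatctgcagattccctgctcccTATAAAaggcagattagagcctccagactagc
Ccl9, chr11:83578637-83578886, minus strand: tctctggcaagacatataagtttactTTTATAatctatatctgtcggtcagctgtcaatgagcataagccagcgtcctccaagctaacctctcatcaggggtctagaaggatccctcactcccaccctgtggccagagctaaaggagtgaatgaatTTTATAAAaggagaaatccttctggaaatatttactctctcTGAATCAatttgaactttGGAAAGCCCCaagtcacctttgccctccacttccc
The motif TATAAA was found in Ccl12, Ccl8 and Ccl9, against 12.4% of 32851 windows of the same length, and it began 31 and 32 bases before the start in Ccl12 and Ccl8. GAGGAA, the core bound by the myeloid factor PU.1, was found in Ccl12, Ccl8 and Ccl3, against 23.3% of windows. The NF-kappa B consensus and the AP-1 site TGANTCA were found in Ccl9 alone, against 3.90% and 6.75% of windows. The interferon element GAAANNGAAA was found in Ccl19 alone, against 2.98%. TTCNNNGAA (the interferon-gamma element GAS) and TTGCNNAA (C/EBP) were found in none of the 6, against 7.02% and 9.56%. No match was found in Ccl6. In Ccl9 a match of TATAAA on the minus strand overlaps one on the plus strand. A match shows only that the letters are present.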

How the data were processed

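Whole right hippocampus RNA of 3 sham and 3 BCAS mice was sequenced as paired-end libraries, grouped here by their labels. The authors trimmed reads with Trim Galore, aligned them to mm10 with HISAT2 and deposited raw counts per gene from featureCounts, without normalization. The methods name featureCounts 1.6.3, and the file headers name 2.0.3 with the GENCODE M20 annotation. By the headers, mates were counted as separate reads and strand was ignored, so counting intervals are too narrow and cover counting error only.

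The 10 ligands, the gene lists and the tests were chosen with earlier results of these data known. Named genes are all 10 ligands, every other tested CC ligand, CC receptor and atypical receptor, up to 3 genes of each further pathway list (those past the thresholds with the highest mean CPM and no overlap), called neighbours on the chromosome, and markers at 0 in all libraries. C1qa, Ctss, Ccl1, Ccr7, Ptk2b, Gng2, Gnb1, the neighbours not called and the other markers were named after their values were seen. Genes were kept by filterByExpr, scaled by TMM and tested in edgeR 4.0.16 (R 4.3.3) across all genes, with limma 3.58.1 and DESeq2 1.42.0 for alternatives. Nothing says whether each library came from a separate litter, and p-values measure the spread between these mice. RPKM used the length column of the tables. Same-numbered mice were not treated as paired in the main fit. Correlations of their deviations from the group means were 0.036, -0.314 and -0.158, which cannot by themselves show whether mice were paired. The steps were tested on simulated data. The scripts used no columns of the authors' own comparisons. Some items covered by the rule for named genes are not reported here.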

Additional observations from a re-analysis of the deposited data

How the results depend on the processing

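All 8 calls among the ligands held with DESeq2, limma-voom, RLE normalization, library totals, a mean count of at least 10, counts halved and rounded up, and adjusted p alone, and with the replicate number as a block (8 of 8). Without the filter on low counts 9 ligands passed, Ccl7 being the addition. With glmTreat against a log2 fold change of 1 there were 7, since Ccl2 was lost (adjusted p = 0.0754). Leaving out each mouse in turn gave 7 to 9 ligands, and 7 came from leaving out sham mouse 3. Over all genes 1762 passed, 818 with glmTreat, 5819 by adjusted p alone, 1595 with the replicate block and 1306 to 1976 on leaving out each mouse.

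Other CC ligands fell from 2 called to 1 with glmTreat, to 1 with counts halved and to 1 without BCAS mouse 3, and ranged from 1 to 3 over the mice left out. With glmTreat 1 atypical receptor (Ackr2 lost, adjusted p = 0.509) and 4 inducers passed. By adjusted p alone 12 signalling genes and 2 chromosomal neighbours passed. Among the 12, Gng2 and Ptk2b were lower in BCAS mice (log2 fold changes -0.59 and -0.93) and the others were higher. Ccr1 was lost with the replicate block (adjusted p = 0.0776). Among genes that were not called, the log2 fold change changed sign when a mouse was left out for Ccl17 (range -0.10 to 1.37, negative without sham mouse 1, without sham mouse 2 at -0.0076 and without BCAS mouse 1 at -0.029), for Ccl21b (-0.81 to 0.22, positive without BCAS mouse 3 and at 0.20 without sham mouse 2) and for Ackr4 (-0.35 to 1.33, negative without sham mouse 3, at -0.053 without sham mouse 1 and at -0.31 without BCAS mouse 3).

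Relative to homeostatic microglia markers in place of the genes shared with macrophages, the differences were 4.94 for Ccl3, 3.24 for Ccl6, 3.03 for Ccl4, 2.83 for Ccl12, 1.35 for Ccl5 and 1.29 for Ccl2, and those of Ccl9 and Ccl8 turned from negative to 1.23 and 0.43. These shifts follow from the smaller rise of that list. With a prior count of 0.5 the difference was 4.42 for Ccl3 and -0.30 for Ccl8. With 3 mice a group and 6 or 8 sham counts behind Ccl3 and Ccl8, the sham levels limit the size of these folds.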
